A study of Rattus norvegicus with 74 samples.

Results

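The hepatic uptake transporters described here are 7 genes whose products carry bile acids, bilirubin conjugates, hormones, drugs and amino acids across the blood-facing membrane of the hepatocyte: Slco1b2, Slco1a1, Slco1a4, Slco2b1, Slc10a1, Slc22a7 and Slc16a10. They were chosen by gene symbol, and every probe set annotated to 1 of these genes alone was kept. That gave 10 probe sets for the 7 genes, of 31042 probe sets and 14217 genes in all. Slco1b2, Slco1a4 and Slco2b1 have 2 probe sets each and the other members 1 each.

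Liver RNA of Wistar Han rats, Crl:WI (Han), was hybridised to 74 Affymetrix rat arrays in 15 agent and dose groups. PBDE-47, a single brominated diphenyl ether, and DE-71, a commercial mixture of brominated diphenyl ethers, were given by gavage once a day at 0, 0.1, 15 and 50 mg/kg. Dosing covered the dams on gestation days 6 to 21 and the pups on postnatal days 12 to 21, and liver was sampled on postnatal day 22. Phenobarbital, the reference drug for CAR activation, was given at 0, 5 and 45 mg/kg. PCB126, a dioxin-like compound that activates the aryl hydrocarbon receptor AhR, was given at 0, 10, 50 and 250, doses labelled mg/kg whose unit could not be checked. The labels give no separate schedule for the Phenobarbital and PCB126 rats, and they give neither sex nor litter, so p-values measure only the spread between these samples. Each group had 5 samples, except PBDE-47 0 mg/kg, DE-71 15 mg/kg and DE-71 50 mg/kg with 4.

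The organic anion transporting polypeptides, encoded by Slco genes, take up bulky organic anions without sodium. Slco1b2 encodes the liver-specific member OATP1B2, Slco1a1 and Slco1a4 encode further members of rodent liver, and Slco2b1 encodes a member found in many tissues. The product of Slc10a1, NTCP, takes up conjugated bile acids together with sodium and provides much of the bile acid uptake in hepatocytes. Slc22a7 encodes the organic anion transporter OAT2, and Slc16a10 encodes TAT1, which carries aromatic amino acids and also thyroid hormone. In rodents, activation of the nuclear receptor PXR is known to raise Slco1a4, and HNF1-alpha is known to bind the promoters of Slc10a1 and of Slco1b genes.

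The promoters of Slco1b2 and Slc10a1 are shown because these were the members called between a dose and its control, in opposite directions. The sequences are RefSeq's on build GRCr8, cover the 250 bases before the annotated transcription start, and run 5′ to 3′ on the strand of the gene. Slco1b2 lies at chr4:176282334-176282583 on the plus strand and Slc10a1 at chr6:106357945-106358194 on the minus strand. Capitals mark the HNF1 half-site GTTAAT.
Slco1b2: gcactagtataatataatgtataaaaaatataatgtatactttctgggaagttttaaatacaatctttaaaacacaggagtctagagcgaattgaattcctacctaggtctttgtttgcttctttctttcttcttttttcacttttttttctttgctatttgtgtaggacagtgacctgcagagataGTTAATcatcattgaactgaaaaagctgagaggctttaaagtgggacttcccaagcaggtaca
Slc10a1: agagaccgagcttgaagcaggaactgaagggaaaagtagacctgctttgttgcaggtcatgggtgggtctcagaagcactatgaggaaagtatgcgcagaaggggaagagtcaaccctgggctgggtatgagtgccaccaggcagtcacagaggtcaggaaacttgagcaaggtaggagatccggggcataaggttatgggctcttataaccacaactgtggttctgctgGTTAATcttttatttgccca
The half-site begins at base -63 in Slco1b2 and at base -20 in Slc10a1, counted from the transcription start. Windows of 300 bases, from 250 before to 50 after the start, were matched for 7 of 7 members and searched on both strands. Only these 2 windows held GTTAAT, a string found in 7.45% of all 33469 rat promoters of the same length. The AhR core GCGTG was present in Slco1b2, at base 13 after the start, and in Slc16a10, at base -81, against 29.7% of all promoters. The STAT core, TTC and GAA with 3 bases between them, was present in Slco1b2 and Slco2b1, against 8.87% of all promoters. No member window held the antioxidant response element core, found in 12.1% of all promoters. Also absent were exact repeats of AGGTCA or AGTTCA: direct with 4 or 1 bases between, everted with 6 and inverted with 1. In that order they were found in 0.0179%, 0.0956%, 0 and 0.0269% of all promoters. The Slco1a1 and Slco1a4 windows, both on chromosome 4, were 66.8% identical, and the other 20 pairs of member windows were 45.2% to 52.4% identical. A string match is a description of the letters in the window and does not show binding.

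Before the results, several features of the libraries bear on the values. The deposited values are log2 expression from robust multi-array average (RMA), apparently normalized per agent. Each dose was therefore set only against its own control or other doses of the same agent. DE-71 and PBDE-47 were compared only by their changes from their own controls. Levels of different probe sets were not set against each other. Pairs of near-identical arrays (4 of 656 pairs of the same agent) were found, of which 2 pairs within a group were averaged, leaving 72 samples, and 2 pairs joined a 15 and a 50 mg/kg array. The latter were replicate 3 of PBDE-47 at both doses, and DE-71 15 mg/kg replicate 5 with DE-71 50 mg/kg replicate 4. The library labelled PCB126 50 mg/kg replicate 2 had Xist at 9.89, against 2.61 to 3.45 in the other samples, and Eif2s3y at 2.45, against 8.22 to 9.47. In the other samples Xist was low and the Y-linked Eif2s3y high, the pattern of males, and this library showed the reverse. Its level of Uty, another Y-linked gene, was 9.07, above 7.01 to 8.39 in the other samples, and so did not follow Eif2s3y. The sex of this library was not tested. No member was called in that group with or without this library. The 22 measured hepatocyte markers averaged 12.42 to 12.93 log2 units in the DE-71 samples and 12.53 to 12.92 in the PBDE-47 samples, high levels for tissue labelled liver. The log2 difference between the 3′ and 5′ probe sets of beta-actin, a measure of how far labelled RNA reaches from the 3′ end, varied from 0.90 to 4.11 between samples (median 1.54) and is called the beta-actin gap. Of 8 measured CAR and PXR index genes, 8 rose with Phenobarbital 45 mg/kg, 8 with PBDE-47 50 mg/kg and 7 with DE-71 50 mg/kg. Of 6 AhR index genes, 3 rose with PCB126 250. The share of all probe sets called was 1.39% with Phenobarbital 45, 2.02% with PBDE-47 50 mg/kg and 0.0322% with PCB126 250. It was 0 with PCB126 10 and 50. These lists were chosen with earlier results of these data known, so the counts are no independent check of the labels. AhR index genes also rose with DE-71, 2 of 6 at 15 mg/kg and 4 of 6 at 50 mg/kg, while 0.483% and 2.69% of all probe sets rose. Any link of the index genes to the members was not tested. Cyp1a1, the classic AhR target, changed by a log2 difference of 4.24 with PCB126 250, 5.78 with DE-71 15 mg/kg, 6.28 with DE-71 50 mg/kg and 2.11 with PBDE-47 50 mg/kg.

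Of the 110 comparisons of a member probe set with its own control (10 probe sets in 11 dose groups), 4 passed limma's test at an adjusted p below 0.05, all of them with DE-71. Slco1b2 rose on both probe sets at 15 mg/kg and on 1 of its probe sets at 50 mg/kg. Slc10a1 fell at 50 mg/kg. No member passed with Phenobarbital, PCB126 or PBDE-47 against 0 mg/kg, and no member passed the test of DE-71 against PBDE-47 at a matched dose. For those groups the share of all probe sets called was 0.0644% with Phenobarbital 5 and 1.39% with Phenobarbital 45 mg/kg, 0.0322% with PCB126 250, 0.441% with PBDE-47 15 and 2.02% with PBDE-47 50 mg/kg, and 0 at the remaining doses of these agents. At an unadjusted p below 0.05, members counted 2, 2, 1, 1 and 4 of 10 in those 5 groups, where 5.63%, 10.1%, 5.84%, 9.11% and 11.8% of all probe sets did.

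**Figure D1:**
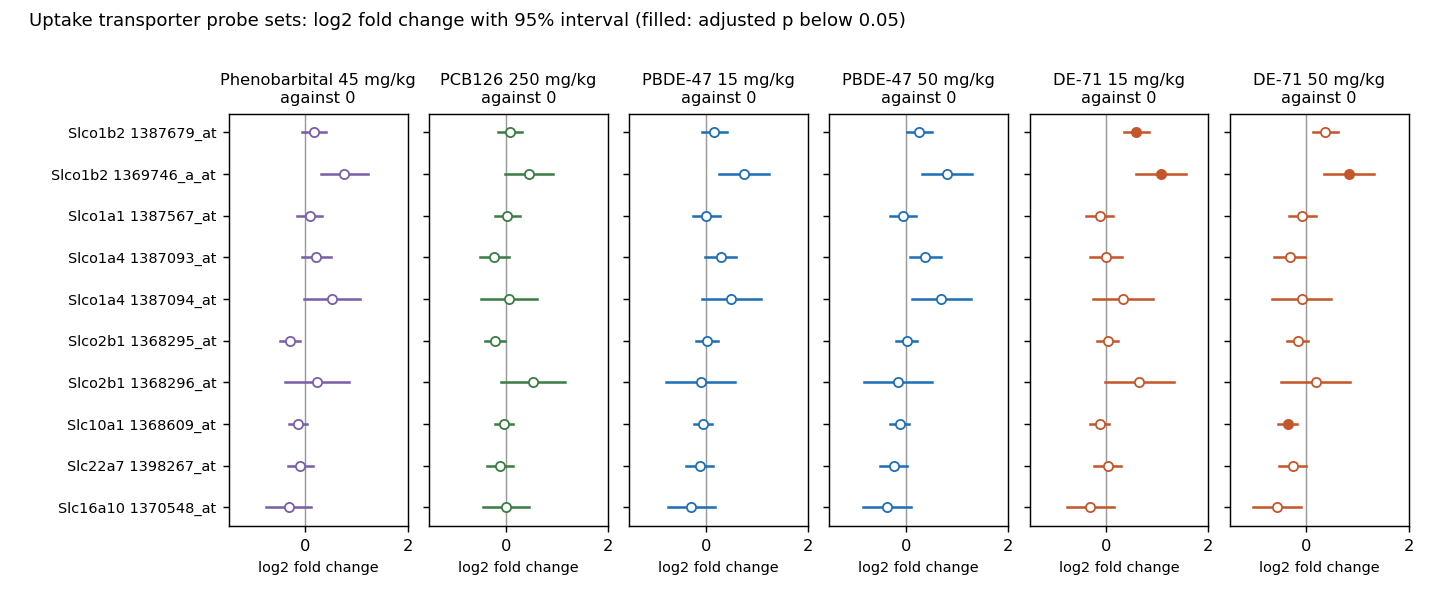
Log2 fold change of each of the 10 member probe sets against 0 mg/kg of the same agent in 6 dose groups, with 95% confidence intervals from limma and filled points where the adjusted p is below 0.05. The highest point is Slco1b2 with DE-71 15 mg/kg, at 1.08. The other Slco1b2 probe set lies at 0.58 there, below a probe set of Slco2b1 in the same group. Slc10a1 with DE-71 50 mg/kg lies at -0.37.

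With DE-71, Slco1b2 was higher at 15 mg/kg than in controls, 1.497-fold on one probe set and 2.11-fold on the other. At 15 mg/kg, 2 of the 10 member probe sets rose and none fell, while 0.483% of all probe sets rose. Probe set 1387679_at read 10.41, 10.49, 10.68 and 10.36 log2 units at 15 mg/kg, against 9.87, 10.28, 9.52, 9.76 and 10.08 at 0 mg/kg. Every sample at 15 mg/kg lay above every control, a separation found in 2.40% of all probe sets. The means were 10.48 ± 0.14 at 15 mg/kg (SD, n = 4) and 9.90 ± 0.29 at 0 mg/kg (SD, n = 5), a log2 difference of 0.58 (SE 0.12, adjusted p = 0.0047).

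Probe set 1369746_a_at of Slco1b2 read 10.14, 10.34, 9.88 and 9.74 with DE-71 15 mg/kg, against 8.64, 9.81, 8.48, 8.62 and 9.17 at 0 mg/kg. The groups overlapped through a single control, replicate 2, at 9.81. The means were 10.02 ± 0.27 at 15 mg/kg (SD, n = 4) and 8.94 ± 0.55 at 0 mg/kg (SD, n = 5), a log2 difference of 1.08 (SE 0.25, adjusted p = 0.013). The beta-actin gap was 1.20 to 1.64 in the DE-71 15 mg/kg samples and 1.21 to 3.00 in the DE-71 controls. With the gap as a covariate, in a fit added after the data were seen, the difference was 0.82 (1.76-fold, adjusted p = 8.9e-05), and 0.619% of all probe sets rose.

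Both Slco1b2 calls at DE-71 15 mg/kg ended when only the samples of these groups entered the fit, with the differences still 0.58 and 1.08 and adjusted p = 0.28 and 0.21. Leaving out DE-71 0 mg/kg replicate 3 ended both calls (adjusted p = 0.052 and 0.081), leaving out 15 mg/kg replicate 4 ended that of 1387679_at (adjusted p = 0.058), and leaving out control replicate 1 or 4, 15 mg/kg replicate 3 or the averaged 15 mg/kg pair ended that of 1369746_a_at.

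**Figure D2:**
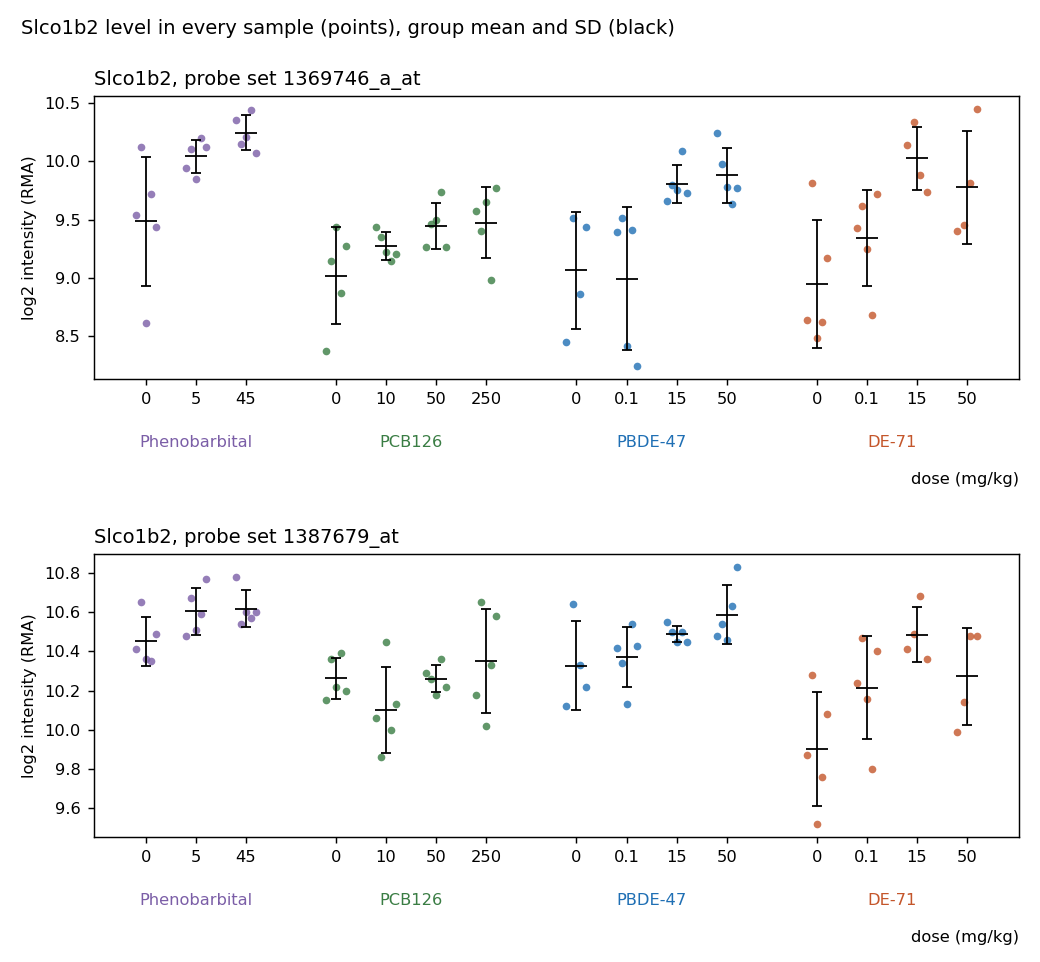
Log2 level of Slco1b2 on each of its probe sets in all samples of each agent and dose group, as points, with the group mean and SD. The DE-71 15 mg/kg mean lies above that of its control on both probe sets, 10.48 against 9.90 on 1387679_at and 10.02 against 8.94 on 1369746_a_at.

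At DE-71 50 mg/kg, 1369746_a_at of Slco1b2 read 9.40, 9.45, 9.81 and 10.45, against the same controls of 8.48 to 9.81. It rose by a log2 difference of 0.83 (1.78-fold, SE 0.25, adjusted p = 0.029), with a mean of 9.78 ± 0.49 (SD, n = 4), and 1 of the 4 samples lay above every control while another, at 9.81, was level with the highest control. Here 1 of the 10 member probe sets rose, while 2.69% of all probe sets rose, and 1 fell, while 3.00% of all fell. Probe set 1387679_at read 9.99, 10.14, 10.48 and 10.48 at 50 mg/kg and did not pass (difference 0.37, adjusted p = 0.056).

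The call on 1369746_a_at at DE-71 50 mg/kg ended without 50 mg/kg replicate 5 (0.61, adjusted p = 0.18), without any one of the control replicates 1, 3 and 4 (adjusted p = 0.077 to 0.081), and in a fit to these groups alone (adjusted p = 0.29). It also ended without the near-identical arrays of 15 and 50 mg/kg (0.82, adjusted p = 0.052). Among those arrays, DE-71 50 mg/kg replicate 4 was the sample at 9.81. With the beta-actin gap as a covariate the difference was 0.72 (adjusted p = 0.00016), where 3.49% of all probe sets rose.

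The dose order for DE-71 was not a steady climb. The means of 1369746_a_at were 8.94 at 0, 9.34 at 0.1, 10.02 at 15 and 9.78 at 50 mg/kg, and those of 1387679_at were 9.90, 10.21, 10.48 and 10.27 in the same order. No neighbouring pair of doses passed the test on either probe set: 0.1 against 0 mg/kg differed by 0.40 and 0.31 (adjusted p = 0.83 and 0.70), 15 against 0.1 mg/kg by 0.68 and 0.27 (adjusted p = 0.31 and 0.43), and 50 against 15 mg/kg by -0.24 and -0.21 (adjusted p = 0.81 and 0.59).

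With PBDE-47, 1369746_a_at of Slco1b2 also stood higher at the upper doses, without passing against 0 mg/kg. It read 10.24, 9.98, 9.78, 9.63 and 9.77 at 50 mg/kg, against 8.45, 9.51, 8.86 and 9.44 at 0 mg/kg. The groups did not overlap, and the means were 9.88 ± 0.24 at 50 mg/kg (SD, n = 5) and 9.07 ± 0.50 at 0 mg/kg (SD, n = 4), a difference of 0.81 (adjusted p = 0.066). At 15 mg/kg the samples read 9.66, 9.80, 9.75, 10.09 and 9.73, above every one of the same controls (difference 0.74, adjusted p = 0.23). The 2 doses are not independent here, as replicate 3 of each, at 9.75 and 9.78, came from near-identical arrays. Groups that did not overlap made up 5.92% of all probe sets at 50 mg/kg and 3.93% at 15 mg/kg. At 0.1 mg/kg the difference was -0.07.

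Against 0.1 mg/kg, PBDE-47 50 mg/kg raised 1369746_a_at by 0.89 (adjusted p = 0.022). In this contrast 2 of the 10 member probe sets rose, the other being 1387094_at of Slco1a4, while 1.29% of all probe sets rose. The Slco1b2 call ended in a fit to these groups alone (adjusted p = 0.14) and without any one of 0.1 mg/kg replicates 3 and 5 and 50 mg/kg replicates 1 and 2, with adjusted p up to 0.15. Those 0.1 mg/kg replicates read 8.41 and 8.24, with beta-actin gaps of 3.79 and 4.11. The other 0.1 mg/kg samples read 9.39 to 9.51, with gaps of 1.12 to 1.70. Across the alternatives other than samples left out in turn, the difference ranged from 0.51 to 0.91. Probe set 1387679_at of Slco1b2 differed by 0.22 in this contrast (adjusted p = 0.43) and by 0.26 against 0 mg/kg (adjusted p = 0.37).

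Phenobarbital 45 mg/kg gave 10.36, 10.15, 10.21, 10.44 and 10.07 on 1369746_a_at, against 9.54, 10.12, 8.61, 9.72 and 9.44 in the Phenobarbital controls. The lowest control, replicate 3, was the sample of that agent with the widest beta-actin gap, 3.65, against 1.19 to 1.35 in the samples at 45 mg/kg. The difference was 0.76 (means 10.25 ± 0.15 at 45 mg/kg and 9.49 ± 0.55 at 0 mg/kg, SD, n = 5 each, adjusted p = 0.09), with no call among the 10 member probe sets. On 1387679_at the difference was 0.17 (adjusted p = 0.69), and Phenobarbital 5 mg/kg differed from 0 mg/kg by 0.55 on 1369746_a_at (adjusted p = 0.80). PCB126 at 10, 50 and 250 mg/kg as labelled gave differences of 0.25, 0.43 and 0.45, none of which passed (adjusted p at least 0.86).

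The probe sets of Slco1b2 differed in how closely they followed the beta-actin gap. Over the 72 samples, with group means removed, 1369746_a_at correlated with the gap at Pearson r = -0.85 and Spearman rho = -0.83, and 1387679_at at r = -0.22 and rho = -0.21. The permutation p, shuffling within groups 100000 times and adjusted over 10 relations, was 2.5e-05 for the first probe set, adjusted from 1e-05, the smallest value these shuffles can give, and 0.15 for r of the second. Without the 2 samples farthest from the median gap, r was -0.81 and -0.23. A correlation with the gap as low as that of 1369746_a_at was found in 1.43% of all probe sets, whose median r was 0.06.

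**Figure D3:**
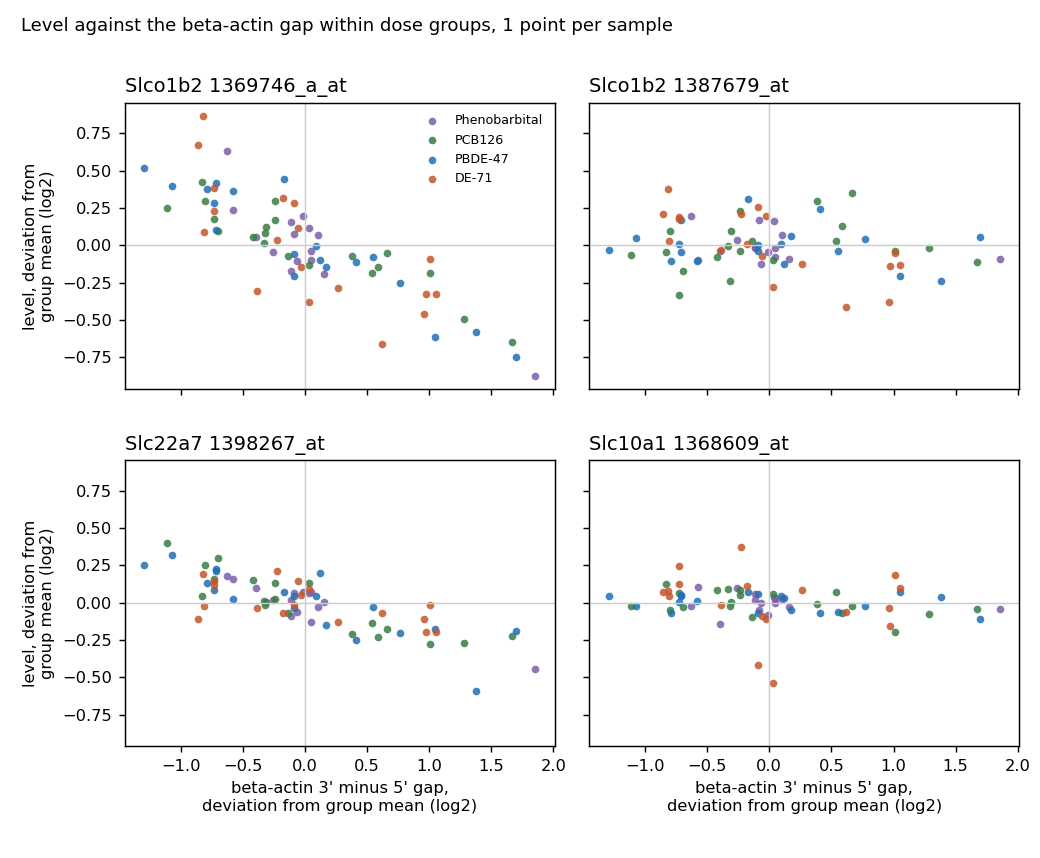
Log2 level of both Slco1b2 probe sets, Slc22a7 and Slc10a1 against the beta-actin gap, both axes as deviations from the group mean, 1 point per sample and coloured by agent. Slco1b2 1369746_a_at (r = -0.85) and Slc22a7 (r = -0.81) fall as the gap widens, while Slco1b2 1387679_at (r = -0.22) and Slc10a1 (r = -0.21) show little slope.

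The same split appeared within the other genes with 2 probe sets. For Slco2b1, 1368296_at correlated with the gap at r = -0.91 and 1368295_at at 0.11, and for Slco1a4, 1387094_at at -0.79 and 1387093_at at 0.08. Spearman's rho was -0.91, 0.15, -0.76 and 0.09 in that order, and r without the 2 farthest samples was -0.89, 0.08, -0.78 and -0.01. The adjusted permutation p of r was 2.5e-05 for 1368296_at and 1387094_at, 0.48 for 1368295_at and 0.55 for 1387093_at. The single probe set of Slc22a7 stood at r = -0.81 (rho = -0.75, adjusted permutation p = 2.5e-05, r = -0.79 without the 2 farthest samples). Slco1a1 gave r = -0.49, Slc10a1 -0.21 and Slc16a10 0.31 (adjusted permutation p = 0.00036, 0.15 and 0.044). Their rho was -0.46, -0.31 and 0.20 (adjusted permutation p = 0.00088, 0.029 and 0.18), so Slc10a1 and Slc16a10 passed on 1 of the 2 measures only. Probe sets of 1 gene correlated with each other within groups at r = 0.48 for Slco1b2, 0.48 for Slco1a4 and -0.07 for Slco2b1.

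With the beta-actin gap as a covariate, 9 of the 110 comparisons with 0 mg/kg were called instead of 4. The DE-71 calls stayed called, and those added were Slco1b2 1369746_a_at with Phenobarbital 45, PBDE-47 15 and PBDE-47 50 mg/kg and Slc22a7 with PBDE-47 50 and DE-71 50 mg/kg. For Slco1b2 the differences in that fit were 0.56 (adjusted p = 0.0059), 0.67 (adjusted p = 0.0028) and 0.68 (adjusted p = 0.00068) in the order named. Each was 1 of 10 member probe sets that rose, while 1.10%, 0.474% and 1.65% of all probe sets rose in that fit. What sets the gap was not tested.

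**Figure D4:**
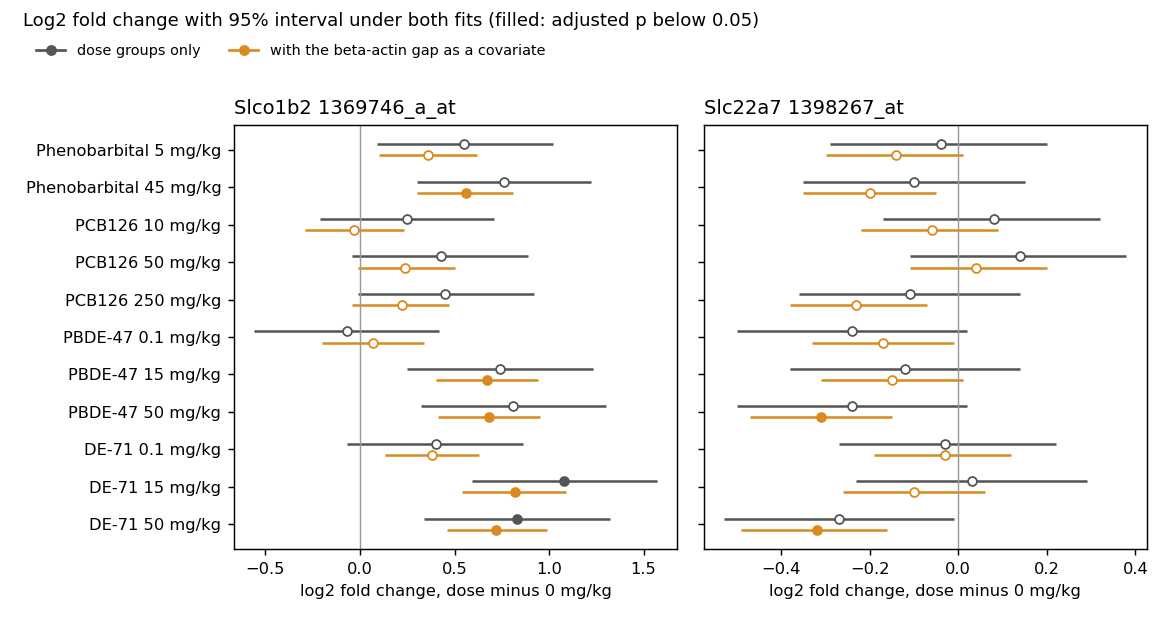
Log2 fold change against 0 mg/kg of Slco1b2 1369746_a_at and Slc22a7 in all 11 dose groups, in the fit with the beta-actin gap as a covariate and in the fit without it, with 95% confidence intervals and filled points where the adjusted p is below 0.05. With the covariate the intervals narrow, and the Slco1b2 estimate is 0.82 with DE-71 15 mg/kg, against 1.08 without it. With PBDE-47 0.1 mg/kg the estimate is 0.07, against -0.07 without the covariate, while Slc22a7 with DE-71 50 mg/kg moves to -0.32.

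Slc10a1, the sodium-dependent bile acid transporter, fell at DE-71 50 mg/kg, to 0.772 of the control level. Its probe set 1368609_at read 11.73, 12.37, 12.64 and 12.34 at 50 mg/kg, against 12.63, 12.72, 12.61, 12.49 and 12.77 at 0 mg/kg. The sample at 12.64, replicate 4, lay among the controls, and the other 3 lay below all of them. Replicate 4 was the array near-identical to DE-71 15 mg/kg replicate 5, which read 12.60. The means were 12.27 ± 0.38 at 50 mg/kg (SD, n = 4) and 12.64 ± 0.11 at 0 mg/kg (SD, n = 5), a difference of -0.37 (95% confidence interval -0.56 to -0.19, adjusted p = 0.0072). Against 0.1 mg/kg the difference was -0.41 (adjusted p = 0.0023), in a contrast where 6.21% of all probe sets fell.

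The size and the call of the Slc10a1 change rested on 1 library. Without DE-71 50 mg/kg replicate 2, the sample at 11.73, the difference from 0 mg/kg was -0.19 (adjusted p = 0.32) and that from 0.1 mg/kg -0.24 (adjusted p = 0.13). In a fit to the groups compared alone, adjusted p was 0.38. Across the alternatives other than samples left out in turn, the difference from 0 mg/kg ranged from -0.50 to -0.37. With the beta-actin gap as a covariate the difference was -0.38 (adjusted p = 0.0041).

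Slc10a1 did not pass in any other group against 0 mg/kg. The means with DE-71 at 0, 0.1 and 15 mg/kg were 12.64, 12.68 and 12.52, and the difference of 15 from 0 mg/kg was -0.13 (adjusted p = 0.77). Phenobarbital 45 mg/kg differed by -0.15 (12.77 ± 0.05 at 45 mg/kg against 12.92 ± 0.10 at 0 mg/kg, SD, n = 5 each, adjusted p = 0.61), PBDE-47 50 mg/kg by -0.12 (adjusted p = 0.70) and PCB126 250 by -0.03.

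At DE-71 50 mg/kg, where Slc10a1 fell and Slco1b2 rose, 4 of 22 measured hepatocyte markers fell and none rose. Of all probe sets, 3.00% fell and 2.69% rose there, and the number that fell went from 930 to 149 without replicate 2. The markers that fell were Hal, which starts histidine breakdown (-0.86), Cps1, the first enzyme of the urea cycle (-0.47), Cyp2e1, a cytochrome that oxidises ethanol (-0.46), and Serpina1, a secreted protease inhibitor (-0.22). Most were not called, among them Alb (-0.01), Ttr (-0.03), Apoa1 (0.12) and Asgr1 (0.15). The mean level of the 22 markers ranged from 12.42 to 12.69 in the DE-71 50 mg/kg samples and from 12.58 to 12.86 in the DE-71 controls. Of other cell types, 2 of 12 stellate and 1 of 9 endothelial markers fell, 1 of 7 cholangiocyte and 1 of 5 neutrophil markers rose, and none of the 13 Kupffer cell, 12 lymphocyte, 8 erythroid, 11 pancreas or 10 kidney and gut markers was called. Their part in the result was not tested. In whole liver, fewer cells of a type and less RNA per cell cannot be told apart.

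**Figure D5:**
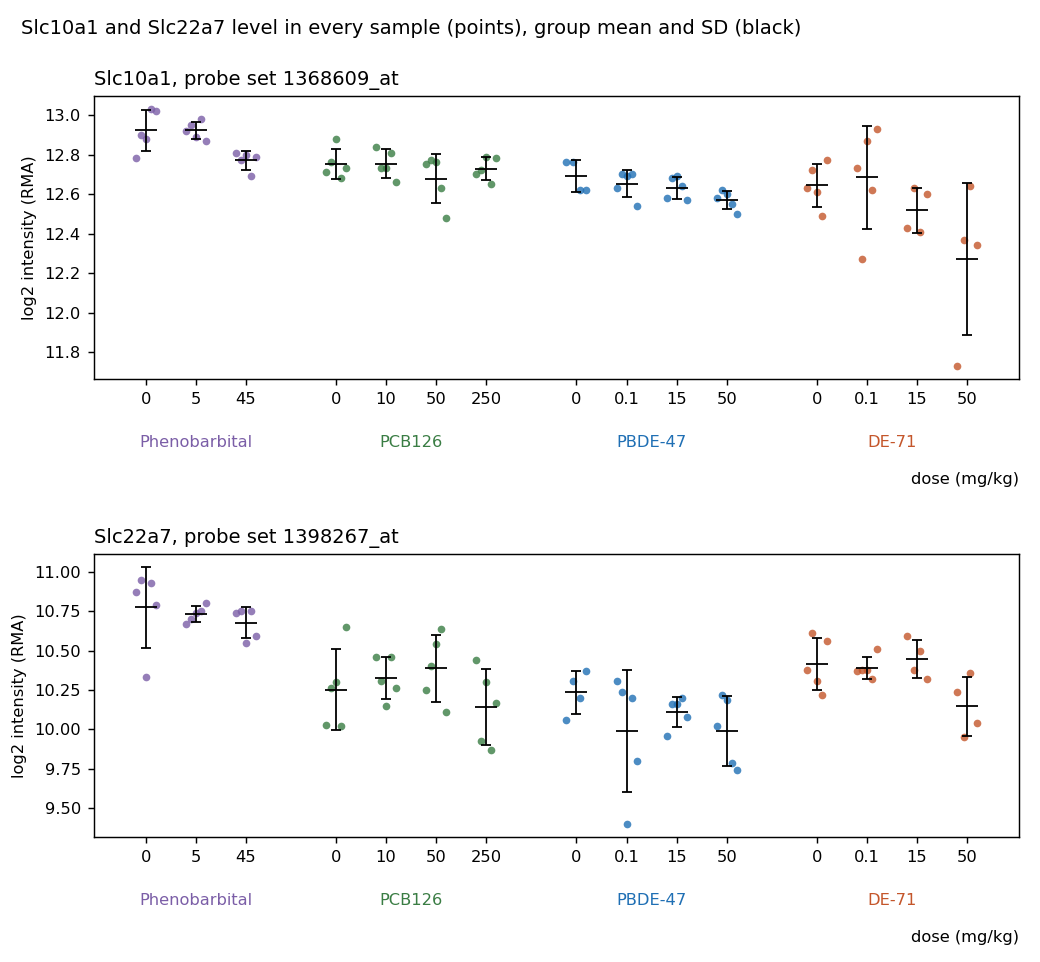
Log2 level of Slc10a1 and of Slc22a7 in all samples of each agent and dose group, as points, with the group mean and SD. The DE-71 50 mg/kg group holds the lowest Slc10a1 sample, at 11.73, and the Slc22a7 means of that group and its control are 10.15 and 10.42.

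Slc22a7, the organic anion transporter OAT2, passed the test at the top dose of both diphenyl ether agents in the fit with the gap and in neither without it. It read 10.24, 9.95, 10.36 and 10.04 with DE-71 50 mg/kg, against 10.38, 10.61, 10.31, 10.22 and 10.56 at 0 mg/kg. The groups overlapped, and without the gap the difference was -0.27 (10.15 ± 0.19 at 50 mg/kg, n = 4, against 10.42 ± 0.17 at 0 mg/kg, n = 5, SD, adjusted p = 0.25). With the gap it was -0.32 (0.799-fold, adjusted p = 0.0068), beside Slc10a1 the other of 2 member probe sets that fell, while 3.74% of all probe sets fell in that fit.

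With PBDE-47 50 mg/kg, Slc22a7 read 10.02, 10.22, 10.19, 9.79 and 9.74, against 10.06, 10.31, 10.20 and 10.37 at 0 mg/kg. These groups overlapped as well, and the difference was -0.24 without the gap (adjusted p = 0.49) and -0.31 with it (0.808-fold, adjusted p = 0.020, where 1.10% of all probe sets fell in that fit). In the same group, without the gap, 6 of 13 Kupffer cell and macrophage markers fell and 1 rose. Of all probe sets, 2.02% were called there, of which 246 fell and 381 rose. The mean level of these markers was 8.06 to 8.48 with PBDE-47 50 mg/kg and 8.48 to 8.99 in the PBDE-47 controls. Their part in the result was not tested.

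Slco1a4, the member known in rodents to answer PXR, was not called against 0 mg/kg in any group, even where the index genes of CAR and PXR rose. On 1387093_at the difference was 0.21 with Phenobarbital 45, 0.38 with PBDE-47 50 and -0.33 with DE-71 50 mg/kg, and on 1387094_at it was 0.52, 0.69 and -0.09 (adjusted p at least 0.22). With PBDE-47 50 mg/kg the samples of 1387093_at read 12.50, 12.64, 12.48, 12.56 and 12.57, against 11.65, 12.57, 12.35 and 12.10 at 0 mg/kg. The dosed samples lay close together, and 1 control lay among them.

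Against 0.1 mg/kg, the probe sets of Slco1a4 gave a call each, in opposite directions with the 2 diphenyl ether agents. PBDE-47 50 mg/kg raised 1387094_at by 0.94 (adjusted p = 0.049, and 0.64 with adjusted p = 0.028 with the gap), while 1387093_at differed by 0.40 (adjusted p = 0.15). DE-71 50 mg/kg lowered 1387093_at by a difference of -0.44 (adjusted p = 0.049). Both calls lie at the threshold, and the alternatives that end them include a second quantile normalization (adjusted p = 0.055 and 0.072) and a fit to the groups compared alone. A variance trend or Xist as a covariate also ended the PBDE-47 call, and the replicate block the DE-71 call. The PBDE-47 call also ended with the GAPDH gap as a covariate (adjusted p = 0.11), without the near-identical arrays (adjusted p = 0.089) and without any one of 0.1 mg/kg replicates 3 and 5 and 50 mg/kg replicates 1, 2, 3 and 5 (adjusted p up to 0.25). The DE-71 call ended without any one of 0.1 mg/kg replicates 1, 2, 3 and 5 and 50 mg/kg replicates 2 and 5 (adjusted p up to 0.25).

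The remaining members showed no call against 0 mg/kg. Slco1a1 differed by -0.16 to 0.25, and its highest difference came with Phenobarbital 5 mg/kg, where it read 9.84, 9.93, 9.97, 9.92 and 9.85, against 9.50, 9.81, 9.55, 9.73 and 9.67 at 0 mg/kg. Those groups did not overlap, as in 1.53% of all probe sets, and adjusted p was 0.87. Slco2b1 on 1368295_at read 9.15, 9.06, 9.18, 9.18 and 8.94 with Phenobarbital 45 mg/kg, against 9.65, 9.23, 9.48, 9.40 and 9.26 at 0 mg/kg. Those groups did not overlap either, as in 3.81% of all probe sets, and the difference of -0.30 did not pass (adjusted p = 0.13). Its probe set 1368296_at ranged from -0.20 to 0.65, highest with DE-71 15 mg/kg (adjusted p = 0.63).

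Slc16a10 had a mean of 5.91 over all samples, under the filter at a mean log2 of 6 that was used as an alternative. With DE-71 50 mg/kg it read 5.57, 6.17, 5.81 and 4.98, against 5.57, 6.70, 5.79, 6.84 and 6.17 at 0 mg/kg, with overlapping groups (difference -0.58, adjusted p = 0.14). Against 0.1 mg/kg it fell, with a difference of -0.71 (adjusted p = 0.039), a call that ended without DE-71 0.1 mg/kg replicate 3 (-0.49, adjusted p = 0.23) and without 50 mg/kg replicate 2 or 5. The call also ended with a second quantile normalization and in a fit to the groups compared alone (adjusted p up to 0.28). Slc16a10 was thus 1 of 3 member probe sets that fell between 50 and 0.1 mg/kg of DE-71, with Slc10a1 and 1387093_at of Slco1a4, while 6.21% of all probe sets fell.

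Over the 7 genes, the median log2 fold change was -0.27 with DE-71 50 mg/kg, against 0.00 over all probe sets, and -0.13 when all 10 probe sets were taken. In the same order of sets it was -0.01 and 0.03 with DE-71 15 mg/kg, -0.06 and -0.02 with PBDE-47 50 mg/kg, and -0.10 and 0.13 with Phenobarbital 45 mg/kg, where the sign turned with the choice of probe sets. With PCB126 250 it was -0.03 and 0.02.

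DE-71 and PBDE-47 were compared at their 3 matched doses as the difference of their responses, which gave 30 differences over the 10 probe sets, adjusted over all probe sets at each dose. None of the 10 passed at 0.1, 15 or 50 mg/kg, where 0, 0.0129% and 0.0387% of all probe sets passed. At an unadjusted p below 0.05, members counted 0, 1 and 1 of 10, where 5.29%, 4.75% and 9.21% of all probe sets did. For Slco1b2 at 15 mg/kg, DE-71 minus PBDE-47 was 0.42 on 1387679_at (95% confidence interval 0.07 to 0.76, adjusted p = 0.98) and 0.34 on 1369746_a_at (-0.36 to 1.03, adjusted p = 0.98). At 50 mg/kg the same differences were 0.11 (-0.24 to 0.45) and 0.02 (-0.67 to 0.71). For Slc10a1 at 50 mg/kg it was -0.25 (-0.51 to 0.01, adjusted p = 0.55).

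The smallest adjusted p among members in this comparison belonged to Slco1a4 at 50 mg/kg. There 1387093_at gave -0.71 (95% confidence interval -1.14 to -0.28, adjusted p = 0.27) and 1387094_at -0.78 (-1.60 to 0.04, adjusted p = 0.56), with DE-71 below and PBDE-47 above their controls on both. These intervals do not show that the agents act alike on the transporters.

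The genes whose levels most resembled each member over the 72 samples, with agent means removed, were named by Pearson r among 7729 genes with a mean log2 of at least 6. For Slco1b2 on 1387679_at they were Ctbs, a lysosomal chitobiase (r = 0.67), Slc16a7, a monocarboxylate transporter (0.66), and Acox2, a peroxisomal oxidase of bile acid intermediates (0.64). For Slc10a1 they were Cyp17a1 (0.82), Suclg2 (0.80) and Cyp2e1 (0.80), the last of which is also a hepatocyte marker that fell. For Slc22a7 they were Inhbc (0.76), Aamp (0.75) and Apoa5 (0.74). These values describe samples that share arrays and dose groups. The beta-actin gap was not removed from them, and Slc22a7 correlated with it at r = -0.81 within groups. They also include DE-71 50 mg/kg replicate 2, the Slc10a1 sample at 11.73. Between members, the closest probe sets were 1369746_a_at of Slco1b2 with 1387094_at of Slco1a4 (0.71) and with 1368296_at of Slco2b1 (0.70), each of which followed the beta-actin gap.

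Among relatives of the members, changes were few. Of 8 other measured Slco genes, Slco2a1, a prostaglandin transporter, fell with Phenobarbital 45 mg/kg (-0.61, adjusted p = 0.037), and none was called with PBDE-47 50 or DE-71 50 mg/kg. Of 15 other Slc22 genes, Slc22a23 fell with Phenobarbital 45 (-0.66), PBDE-47 50 (-0.48) and DE-71 50 mg/kg (-0.75), and Slc22a18 rose by 0.29 with Phenobarbital 45 and with DE-71 50 mg/kg. Of 12 other Slc10 and Slc16 genes, Slc16a7 rose with Phenobarbital 45 (0.41), PBDE-47 50 (0.43), DE-71 15 (0.45) and DE-71 50 mg/kg (0.39), and Slc16a1, the widespread lactate transporter, fell with DE-71 50 mg/kg (-0.73).

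Of 28 measured regulators of uptake transporters, none was called with Phenobarbital 45 or PBDE-47 50 mg/kg, though 2 fell with Phenobarbital 45 mg/kg in the fit with the gap. With DE-71 15 mg/kg, where Slco1b2 rose on both probe sets, Cebpb, a liver transcription factor gene, rose (0.74), and with PCB126 250 Nfe2l2 rose (0.76). With DE-71 50 mg/kg 2 regulators rose and 4 fell, while 2.69% of all probe sets rose and 3.00% fell. In number, 834 of all probe sets rose and 930 fell, against 274 and 149 without replicate 2. In a fit to the groups compared alone, 100 rose and 32 fell. The regulators that rose were Nfe2l2, encoding the stress-response factor NRF2 (0.52), and Keap1, encoding its inhibitor (0.34). Those that fell were the liver factor Foxa3 (-0.90), Nr2f2 (-0.65), the glucocorticoid receptor gene Nr3c1 (-0.44) and the thyroid hormone receptor gene Thrb (-0.39). These are the same samples in which Slc10a1 fell, and any link between them was not tested.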

How the data were processed

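Liver RNA of 74 arrays in 15 groups was analysed. The authors deposited log2 values for each probe set, computed with RMA per the submitters' processing notes; its version and a genome build are not given in the sources used here. Of 31099 probe sets, 57 controls were left out. Genes come from the array's platform annotation, in which 20826 probe sets have 1 gene, 436 several and 9780 none. Dim probe sets were kept.

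Near-identical arrays within a group (root mean square difference below 0.3 over 300 genes, those varying most among genes at a mean log2 of 7 or more) were averaged, leaving 72 samples, which departs from the written plan. One linear model with 15 group means was fitted with limma 3.58.1 in R 4.3.3 (lmFit, eBayes, 57 residual degrees of freedom). P-values are two-sided and adjusted by Benjamini and Hochberg over all 31042 probe sets per contrast, with calls below 0.05. The largest median shift over all probe sets was 0.03018 log2 units in size. Arrays have no counting depth, so their number limits the precision. The script was tested on simulated data.

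Alternatives were each array as its own sample, another normalization, 1 probe set per gene, a filter on mean log2, a fit to the groups compared, replicate number as a block, a variance trend, Xist or the beta-actin or GAPDH gap as a covariate, and samples left out in turn. Promoters were read from RefSeq GRCr8 and aligned with Biopython 1.88. The members, lists and tests were chosen with earlier results of these data known. Genes named are the members, their closest genes by correlation, and called genes of the listed families, regulators and hepatocyte markers. Samples of the same number were checked for pairing and were not paired.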

Additional observations from a re-analysis of the deposited data

Results flagged for a closer look

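Within each group of 4 or 5 samples, a member value was looked at again where its distance to the nearest sample took up most of the group's range (Dixon's criterion). Chance marks about 1 in 20 groups, and 8 of 150 were marked here. With Phenobarbital, replicate 1 at 45 mg/kg was high on Slco1b2 1387679_at (10.78, nearest sample 10.60), and replicate 1 at 5 mg/kg was low on Slco1a4 1387093_at (12.35, nearest 12.57). Phenobarbital 0 mg/kg replicate 3 was low on Slco2b1 1368296_at (6.13, nearest 7.34) and on Slc22a7 (10.33, nearest 10.79), and its beta-actin gap was 3.65. With PCB126, replicate 4 at 250 was low on Slco1a4 1387094_at (9.25, nearest 9.98), and replicate 5 at 50 was low on Slco2b1 1368295_at (8.62, nearest 8.92). PBDE-47 0 mg/kg replicate 1 was low on Slco1a4 1387094_at (8.57, nearest 10.13), and DE-71 0.1 mg/kg replicate 3 was high on Slc16a10 (7.24, nearest 6.20).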

How the results depend on the processing

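Counts are member probe sets called out of 10. With Phenobarbital 45 mg/kg the count of 0 became 1 with a filter at a mean log2 of 6 and with the beta-actin or GAPDH gap, and was 0 to 1 with a sample left out. With PBDE-47 15 mg/kg it became 1 with either gap. With PBDE-47 50 mg/kg the count of 0 became 1 with every array as its own sample, with the filter and with the replicate block, and 2 with either gap, and was 0 to 1 with a sample left out. With DE-71 15 mg/kg the count of 2 became 0 in a fit to the groups compared alone and was 0 to 2 with a sample left out, 0 without DE-71 0 mg/kg replicate 3. With DE-71 50 mg/kg the count of 2 was 2 of 7 with 1 probe set per gene, 0 in a fit to the groups compared alone, 1 without the near-identical arrays, 3 with the filter and with either gap, and 1 to 4 with a sample left out. Over all probe sets, 834 rose and 930 fell there, against 274 and 149 without replicate 2 and 100 and 32 in a fit to the groups compared. The cause was not tested.

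One value reversed: Slco2b1 1368296_at between PBDE-47 50 and 0.1 mg/kg was 0.04 and became -0.51 with the GAPDH gap (adjusted p = 0.046). Of the other single values under all alternatives, 5019 kept direction and side of the threshold, 34 came to pass and 50 ceased to pass. Replicate numbers did not pair the samples. The replicate block changed no count against 0 mg/kg but that of PBDE-47 50 mg/kg.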

Other observations

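Pumps that move compounds out of hepatocytes changed in several of the same groups. Of 13 measured export genes, 3 rose and 2 fell with Phenobarbital 45 mg/kg and with PBDE-47 50 mg/kg, and 2 rose and 3 fell with DE-71 50 mg/kg. Over all probe sets, 1.39% were called with Phenobarbital 45 and 2.02% with PBDE-47 50 mg/kg, and 2.69% rose and 3.00% fell with DE-71 50 mg/kg. Abcc3, which exports conjugates and bile acids to blood, rose by 1.26, 1.72 and 1.75 on the log2 scale in that order, and Abcc2, the canalicular conjugate pump, by 1.13, 1.09 and 1.13. Abcg8, a subunit of the biliary sterol exporter, fell (-1.63, -2.94 and -1.81), and so did its partner Abcg5 (-1.42, -2.66 and -1.61). Export and uptake genes were not tested against each other.

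With PCB126 250 no uptake member was called, where 0.0322% of all probe sets were called. In the PCB126 groups, counts at an unadjusted p below 0.05 were 0 of 10 members at 10, 1 at 50 and 1 at 250, where 3.30%, 5.59% and 5.84% of all probe sets fell under it, and without PCB126 50 mg/kg replicate 2 the count of calls was also 0.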
